A study of Mus musculus with 2 samples.

Results

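The mRNA levels of 10 BCL2 family genes were examined in leukemic stem cells (LSCs) from mice with BCR-ABL-driven chronic myeloid leukemia (CML), with and without STAP-1. The genes were taken by symbol from the 23284 symbols that each library lists, and all 10 were found. They are 7 survival genes, Bcl2, Bcl2l1, Bcl2l2, Mcl1, Bcl2a1a, Bcl2a1b and Bcl2a1d, and 3 effector genes, Bax, Bak1 and Bok. There was 1 RNA-seq library of WT LSCs and 1 of STAP-1 KO LSCs (the KO library below), both from donors of the C57BL/6J background. In both groups, bone marrow stem and progenitor cells had been given BCR-ABL and green fluorescent protein (GFP) by a retrovirus and were transplanted with helper marrow into lethally irradiated congenic mice. The KO donors carried a targeted disruption of the STAP-1 gene. GFP-positive donor LSK cells, which lack lineage markers and carry Sca-1 and c-Kit, were sorted on day 11 after the first transplantation. The mice of the study were 8 to 14 weeks old, and whether several animals were pooled for a library is not given in the sources used here. Since each genotype has 1 library, the differences below could not be set against a spread between replicates, and no p-values were computed.

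Proteins of this family decide whether the outer mitochondrial membrane is opened during apoptosis. BAX and BAK oligomerize in that membrane and release cytochrome c, and BOK is a less well understood relative of them. BCL-2, BCL-XL (the product of Bcl2l1), BCL-W (Bcl2l2), MCL-1 and A1 (the Bcl2a1 genes) hold the effectors and their BH3-only activators in a groove and thereby keep cells alive. STAT5, a transcription factor active in BCR-ABL-transformed cells, is known to raise Bcl2l1 and Bcl2, and MCL-1 is a short-lived protein on which hematopoietic stem cells depend. The question behind the comparison was how loss of STAP-1 changes gene expression in LSCs.

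Expression was given as FPKM, a read density scaled by transcript length and by sequencing depth, so levels of different genes can be compared per length. Stap1 had 62.0 FPKM in WT LSCs and 0.309 FPKM in KO LSCs, which fits the labels. The files state no read numbers. From the steps between low values, an effective depth of 7500000 reads was estimated for the WT library and of 10470000 reads for the KO library, and 47.8% of 278 and 47.5% of 341 low values then lay within 0.01 of a whole read, so these depths are rough. Read numbers below are estimates from these depths, and their intervals cover counting error only. The libraries also differed in markers of cell types. All 10 mast cell markers were lower by 2-fold or more in the KO library, with summed levels of 49520 and 4305 FPKM and none at 0. Of 10 neutrophil granule markers, 5 were higher and 4 lower (summed levels of 957 and 4780 FPKM). Of 10 LSK markers, 4 were lower and 1 was higher (1099 and 392 FPKM), with the c-Kit gene Kit at 468 and 30.1 FPKM and the Sca-1 gene Ly6a at 285 and 106 FPKM, both present in each library. Among the markers found for erythroid cells (5 of 7 chosen), megakaryocytes (5), T cells (5), macrophages (4 of 5 chosen) and eosinophils (5), 1 of each list was lower, and 0, 1, 2, 1 and 2 were higher. Their summed levels were 623 and 362 FPKM for erythroid cells, 194 and 131 FPKM for megakaryocytes, 3.89 and 7.41 FPKM for T cells, 101 and 34.0 FPKM for macrophages and 10.5 and 76.2 FPKM for eosinophils. Among B cell markers, Cd79b was higher (3.10 and 17.8 FPKM), Cd79a was listed at 0 in the WT library and had 0.17 FPKM in the KO library, and Ebf1 and Pax5 were listed at 0 in both. In these bulk samples, fewer cells of a type and less RNA per cell cannot be told apart, and the part of cell composition in the results below was not tested.

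All 7 survival genes had a lower value in the KO library, and 3 of them were past the 2-fold cut-off with at least 0.1 FPKM in both libraries. These were Bcl2l1, Bcl2a1b and Bcl2a1d. Among the 12507 genes that could be compared, 22.9% were at least 2-fold lower. Of the effector genes, Bok was past the cut-off upwards, whereas 12.3% of all compared genes were at least 2-fold higher, and Bax and Bak1 stayed within it. The median log2 ratio, taken as log2((STAP-1 KO + 0.1)/(WT + 0.1)), was -0.93 for the 7 survival genes, -1.07 for the 6 of them averaging at least 1 FPKM and -0.18 for the 3 effector genes, beside -0.04 for the 10974 genes at that level. Among the survival genes, the 3 Bcl2a1 copies share reads and are not separate measurements.

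**Figure D1:**
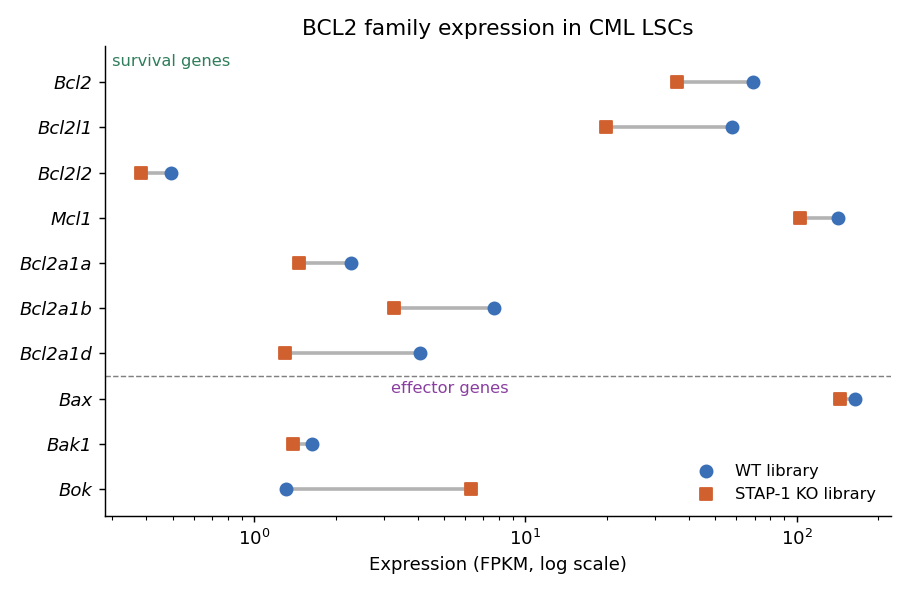
Expression of the 10 BCL2 family genes in the WT library (circles) and the KO library (squares), in FPKM on a log scale, with survival genes above the dashed line and effector genes below it. Every survival gene lies lower in the KO library, and Bok is the gene with the higher value there.

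The 4 highest levels had the same order in both libraries. Bax was highest (164 FPKM in WT and 145 FPKM in STAP-1 KO), followed by Mcl1 (142 and 103 FPKM), Bcl2 (68.9 and 36.2 FPKM) and Bcl2l1 (57.7 and 19.8 FPKM). Bcl2l2 was the lowest in both. Below the first 4 genes, no member exceeded 7.68 FPKM. Bok was the member that changed place most, from the 9th to the 5th. Without replicates it cannot be said which neighbours in this order differ.

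Mcl1 is a gene of 3 exons on chromosome 3 (GRCm38, 95658788 to 95663176, plus strand). It had the highest level of the survival genes, with 142 FPKM in the WT and 103 FPKM in the KO library. Its log2 ratio was -0.46 (counting interval from -0.53 to -0.39, about 3425 and 3473 estimated reads). The difference of 1.38-fold did not reach the cut-off, and 35.5% of the genes averaging at least 1 FPKM had a lower log2 ratio. Mcl1 made up 50.2% of the summed survival FPKM in the WT library and 62.3% in the KO library, while the share of Bcl2l1 was 20.4% and 11.96% and that of Bcl2 24.3% and 21.9%. These shares depend on the length trend described with Bcl2. A correction for length and GC content was put on the KO values, with the WT values left as deposited, since the library that carries the trend is not known. At the longest transcripts of the members, the KO shares were then 53.0% for Mcl1, 10.5% for Bcl2l1 and 34.4% for Bcl2, whose direction turned. At the shortest, which for Mcl1 is shorter than its reference coding sequence, they were 67.8%, 10.1% and 19.3%.

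Bcl2l1, on the minus strand of chromosome 2 (152780668 to 152831728), encodes the long survival isoform BCL-XL and by splicing a shorter form, which a gene-level value does not separate. Its level was 57.7 FPKM in WT against 19.8 FPKM in KO LSCs, 2.91-fold lower. The log2 ratio of -1.54 had a counting interval from -1.70 to -1.38, all of it past the cut-off. Of the genes averaging at least 1 FPKM, 13.2% had a lower log2 ratio. No 75-base window of its reference transcript was found in a transcript of another gene. Mcl1 had 2.47 times the FPKM of Bcl2l1 in WT LSCs and 5.21 times in KO LSCs.

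Bcl2, on the minus strand of chromosome 1 (106538178 to 106714274), had 68.9 FPKM in WT LSCs and 36.2 FPKM in KO LSCs. This difference of 1.90-fold lay just short of the cut-off, and the log2 ratio of -0.93 had a counting interval from -0.999 to -0.853. The reading of this value depends on transcript length. Across 9931 genes, Spearman's rho between the log2 ratio and the longest annotated transcript was -0.36, a description across genes of 1 pair of libraries. Genes up to 1322 bases had a median log2 ratio of 0.51 and genes from 6394 bases one of -0.99. The longer of the 2 annotated Bcl2 transcripts has 7191 bases, where the median of all genes was -0.97, and after a correction for length and GC content the log2 ratio of Bcl2 was -0.04. The shorter transcript has 2841 bases, where the median was 0.12, and the same correction then gave -1.28. Which of the transcripts the cells carried cannot be read from a gene-level FPKM. Of the 75-base windows of the longer transcript, 5.96% also occur in a transcript of D630008O14Rik, which overlaps Bcl2.

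The same correction left Bcl2l1 at -1.50 and Mcl1 at -0.47 on the log2 scale. With the shortest complete coding transcript in place of the longest, Bcl2l1 was at -1.95 and Mcl1 at -0.52. Bcl2l1 therefore stayed past the cut-off with either transcript, and Mcl1 within it. The shortest Mcl1 transcript has 858 bases, fewer than the 996 coding bases of its reference transcript. For Bcl2l2 these lengths are 498 and 582 bases. Neither short transcript can hold the whole reference coding sequence, and values given at the shortest transcripts rest in part on them.

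**Figure D2:**
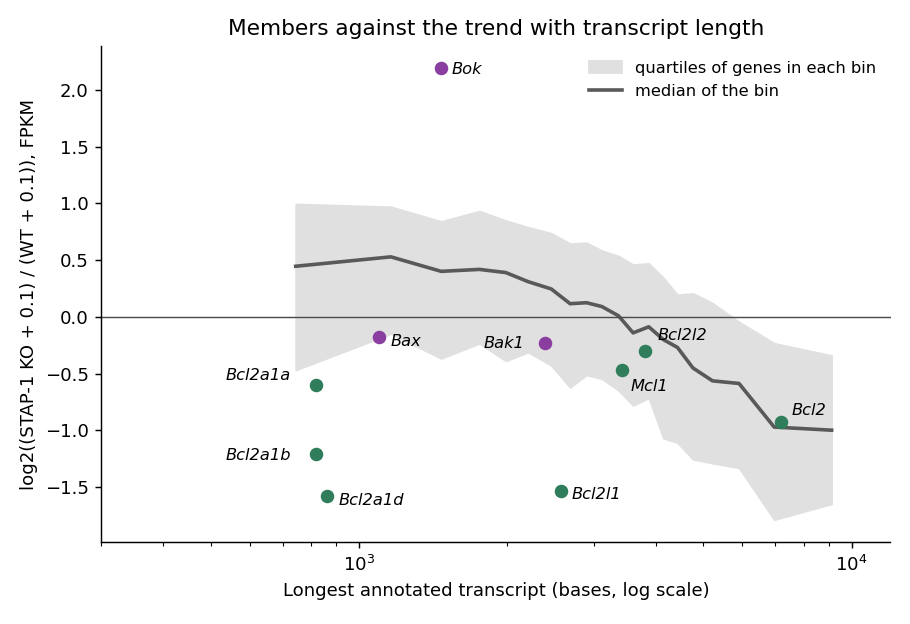
Log2 ratio of each member (points, green for survival and purple for effector genes) against its longest annotated transcript in bases on a log scale, over the median (line) and the range between quartiles (band) of all genes averaging at least 1 FPKM in 20 bins of length. Bcl2 lies on the line, the Bcl2a1 copies and Bcl2l1 lie under the band, and Bok lies above it.

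The Bcl2a1 genes are duplicated copies on chromosome 9 that encode A1, a survival protein induced by NF-κB and by activation of granulocytes and mast cells. Bcl2a1a spans 88956900 to 88962419 and Bcl2a1b 89199209 to 89207827 on the plus strand, and Bcl2a1d spans 88723285 to 88731914 on the minus strand. Each has 1 annotated transcript of 2 exons and a coding sequence of 519 bases. The first 100 coding bases (GENCODE M21 transcripts, GRCm38) are printed because 7 of the 12 coding positions that vary among the 3 copies fall there, and capitals mark those positions. They lie in exonic coding sequence at chr9:88957051-88957150 (plus strand), chr9:89199360-89199459 (plus strand) and chr9:88731620-88731719 (minus strand), in the order shown.
Bcl2a1a: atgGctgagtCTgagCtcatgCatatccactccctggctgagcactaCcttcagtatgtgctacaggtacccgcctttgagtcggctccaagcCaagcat
Bcl2a1b: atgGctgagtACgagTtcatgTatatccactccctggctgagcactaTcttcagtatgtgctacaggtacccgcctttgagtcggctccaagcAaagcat
Bcl2a1d: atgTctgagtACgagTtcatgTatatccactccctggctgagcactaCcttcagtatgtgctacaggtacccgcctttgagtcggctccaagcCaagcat

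Over the whole coding sequence, Bcl2a1a and Bcl2a1b were 97.9% identical (11 differences), Bcl2a1a and Bcl2a1d 98.7% (7 differences) and Bcl2a1b and Bcl2a1d 98.8% (6 differences). With positions counted from the first base of the start codon, G4T separates Bcl2a1d from both other copies, and C94A, from Bcl2a1a to Bcl2a1b, marks Bcl2a1b. Reads were 75 bases long. Of all 75-base windows of the transcripts, 53.8% of Bcl2a1a, 43.5% of Bcl2a1b and 67.6% of Bcl2a1d occur unchanged in another of these copies. When up to 2 mismatches were allowed, the shares were 89.8%, 100% and 94.4%. With all annotated transcripts searched, 55.2%, 68.4% and 67.6% of the windows occur in another gene. These include Gm29094, which overlaps Bcl2a1b and is not a symbol of the files, and Bcl2a1c. The values of single copies are therefore uncertain. Their sum is less so but does not take in every gene that shares reads with them.

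**Figure D3:**
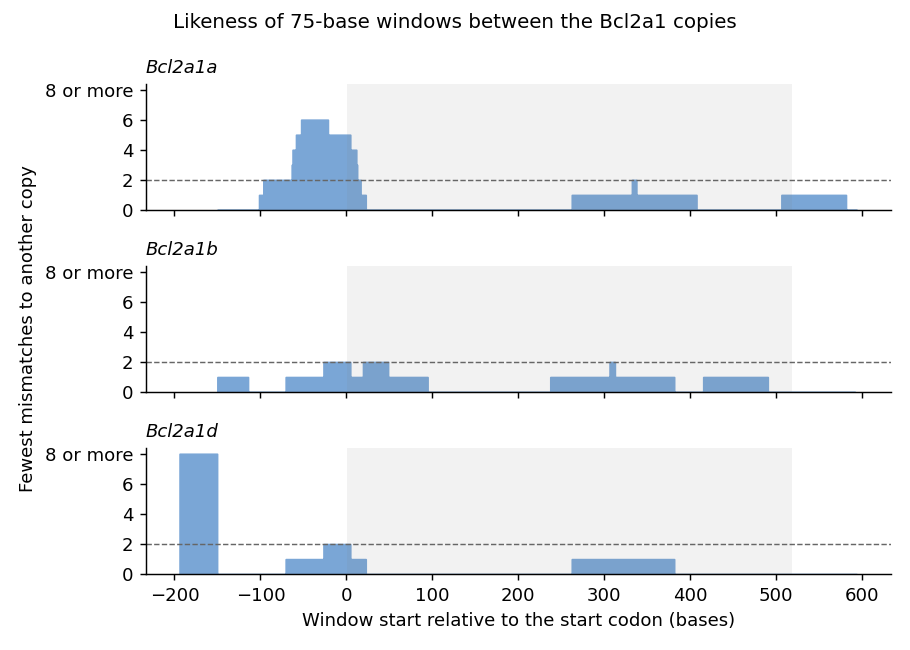
Fewest mismatches between each 75-base window of a Bcl2a1 transcript and any window of the other 2 copies, against the start of the window in bases from the start codon. The shaded area is the coding sequence and the dashed line marks 2 mismatches. Windows that start around the start codon of Bcl2a1a and at the upstream end of Bcl2a1d rise above it, and those of Bcl2a1b do not.

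As deposited, Bcl2a1a had 2.27 FPKM in the WT and 1.46 FPKM in the KO library. Bcl2a1b had 7.68 and 3.26 FPKM and Bcl2a1d 4.08 and 1.30 FPKM. The summed level of the 3 copies was 14.03 FPKM in WT against 6.03 FPKM in KO LSCs, 2.33-fold lower. The log2 ratio of the sum was -1.22, with a counting interval from -1.83 to -0.62 for the pooled reads of the copies, about 65.1 and 39.2 estimated reads. The interval includes the cut-off, so the sum was lower beyond counting error, but whether by 2-fold was not resolved at this depth. Bcl2a1b held 54.7% of the sum in the WT library and 54.2% in the KO library. The further copy Bcl2a1c, which is not among the 10 genes and was chosen after its values were seen, had 0.565 FPKM in the WT library and was listed at 0 in the KO library. The short transcripts of the copies lie where genes in general were higher in the KO library (a median log2 ratio of 0.45 in their length bin), and the correction moved Bcl2a1a to -1.28, Bcl2a1b to -1.89 and Bcl2a1d to -2.26. The mast cell markers, whose summed level is given above, were lower in the same library, and their part in this result was not tested.

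Bcl2l2, on chromosome 14 (54883377 to 54888234, plus strand), encodes BCL-W. It had 0.492 FPKM in WT LSCs and 0.382 FPKM in KO LSCs, with about 12.2 and 13.2 estimated reads. The counting interval of the log2 ratio (-0.30) ran from -1.61 to 0.90, so a 2-fold lower level could not be told from an equal one at this depth. The gene overlaps Gm20521, a transcript that reads on from Bcl2l2, and 15.2% of its 75-base windows occur there too.

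Among the effectors, Bax, on the minus strand of chromosome 7 (45461697 to 45466898), was the gene with the highest level. It had 164 FPKM in the WT and 145 FPKM in the KO library, and its log2 ratio was -0.18 (counting interval from -0.30 to -0.03). Bak1, on the minus strand of chromosome 17 (27019810 to 27029009), had 1.64 FPKM in WT against 1.38 FPKM in KO LSCs, with a log2 ratio of -0.23 and a counting interval from -1.02 to 0.56. Bax held 98.2% of the summed effector FPKM in the WT library and 94.9% in the KO library. Of the 75-base windows, 15.0% of Bax and 14.1% of Bak1 occur in 1 other overlapping gene each, Gm45808 and Ggnbp1.

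Bok, on chromosome 1 (93685660 to 93695764, plus strand), went the other way. It had 1.31 FPKM in WT LSCs and 6.32 FPKM in KO LSCs, 4.83-fold higher, on about 12.3 and 83.5 estimated reads. The log2 ratio of 2.19 had a counting interval from 1.43 to 3.32, and 98.2% of genes averaging at least 1 FPKM had a lower log2 ratio. It was 2.19 after the correction for length and GC content, and no window of its transcript was shared with another gene. Even so, Bok held 4.15% of the summed effector FPKM in the KO library, against 0.784% in the WT library.

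Survival and effector proteins share the BH3 helix, the part by which they bind each other. In 6 of the 10 coding sequences, a leucine codon, 3 further codons, a glycine codon and an aspartate codon followed each other in frame at 1 place, the core of that helix. The codons of both groups are shown so that the likeness across the families can be seen, with the glycine and aspartate codons in capitals.
Bcl2: ctccgccgggctGGGGAT
Bcl2l1: ctgagagaggcaGGCGAT
Mcl1: ctgcggcgcgtgGGCGAC
Bax: ctccggcgaattGGAGAT
Bak1: cttgctctcatcGGAGAT
Bok: ctgctgcgcttgGGAGAT

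They begin at coding base 280 of Bcl2, 268 of Bcl2l1, 580 of Mcl1, 187 of Bax, 226 of Bak1 and 211 of Bok, counted from the start codon. They lie at chr1:106712584-106712601 for Bcl2 (minus strand), chr2:152829706-152829723 for Bcl2l1 (minus strand), chr3:95659436-95659453 for Mcl1 (plus strand), chr7:45466006-45466023 for Bax (minus strand) and chr17:27022540-27022557 for Bak1 (minus strand) in GRCm38, and in Bok they span an exon junction. The pattern in this strict form was not found in Bcl2l2 or in the 3 Bcl2a1 copies.

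**Figure D4:**
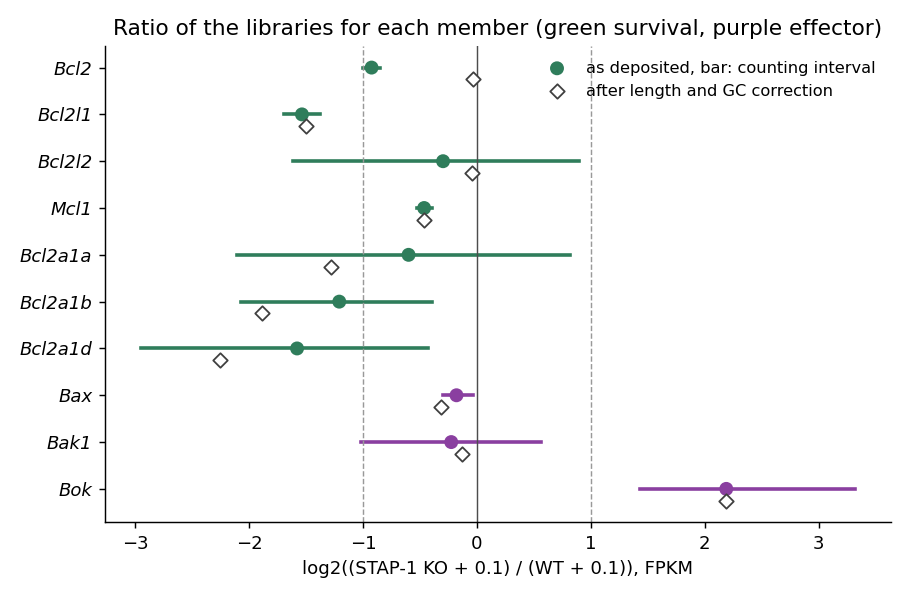
Log2 ratio of each member as deposited (filled points, bars showing the 95% counting interval) and once length and GC content were corrected for (open diamonds), with the 2-fold cut-off dashed. The bars are narrow for Bcl2, Bcl2l1, Mcl1 and Bax and wide for the genes of low level, and the diamond of Bcl2 lies near 0.

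The survival genes were then set against Bax, Bak1 and Bok. The summed level of the 7 survival genes was 284 FPKM in the WT and 166 FPKM in the KO library, a log2 ratio of -0.77. The counting interval for their pooled reads ran from -0.81 to -0.72. The summed level of the effectors was 167 FPKM in WT against 152 FPKM in KO LSCs, a log2 ratio of -0.13. For their pooled reads the interval ran from -0.21 to 0.05 and includes 0. The ratio of the survival sum to the effector sum was thus 1.70 in WT LSCs against 1.09 in KO LSCs, lower by 0.64 on the log2 scale. A scaling of the libraries acts on both sums alike, but transcript length does not, since the effector sum is nearly all the short gene Bax. With the KO value of each member corrected for length and GC content and the WT values left as deposited, the log2 difference was -0.29 at the longest transcripts. It was -0.71 at the shortest with a complete coding sequence, which for Mcl1 and Bcl2l2 are shorter than the reference coding sequence. Set against Bax alone, Bcl2 was at 0.4202 and 0.2503, Bcl2l1 at 0.352 and 0.137 and Mcl1 at 0.870 and 0.714 of its FPKM in the WT and STAP-1 KO libraries. On the log2 scale these ratios differed by -0.75, -1.36 and -0.28 between the libraries. After the correction at the longest transcripts the difference was 0.27 for Bcl2, which turned its direction, -1.19 for Bcl2l1 and -0.15 for Mcl1, and at the shortest it was -0.99, -1.66 and -0.22. The balance is one of mRNA, and the proteins were not measured in these files.

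**Figure D5:**
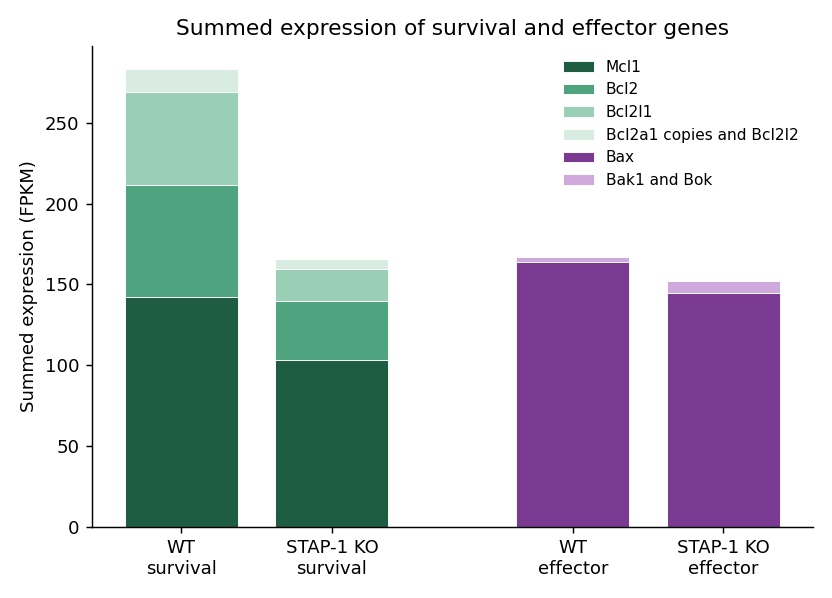
Summed FPKM of the survival genes (green) and effector genes (purple) in the WT and STAP-1 KO libraries, stacked by gene. The survival stack goes from 284 to 166 FPKM with Mcl1 as its largest part, and the effector stack, nearly all Bax, goes from 167 to 152 FPKM.

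Other genes of the mitochondrial pathway were followed by lists. Genes under 0.1 FPKM in either library were not compared, and counts can be read against the 22.9% lower and 12.3% higher among all compared genes. Of 10 BH3-only genes, which activate the effectors or neutralize the survival proteins, 7 could be compared, and 2 of these were at least 2-fold lower and none higher. Bnip3 had 83.4 and 26.5 FPKM in the WT and STAP-1 KO libraries and Bbc3, which encodes PUMA, had 10.2 and 4.65 FPKM. Pmaip1, which encodes the MCL-1 antagonist NOXA, had 66.9 and 43.04 FPKM, and Bid had 57.0 and 80.5 FPKM, both within the cut-off. The median log2 ratio of the 7 BH3-only genes averaging at least 1 FPKM was -0.37. After the correction for length and GC content, 3 were lower, with Pmaip1 added at a log2 ratio of -1.002. Among 6 other relatives of BCL2, 4 could be compared, and 2 of these were higher and none lower. The higher genes were Bcl2l14 at 2.19 and 17.4 FPKM and Bcl2l15, named after its values were seen, at 0.251 and 0.718 FPKM. Bcl2l12 had 14.0006 and 22.8825 FPKM and Bcl2l13 had 19.04 and 13.62 FPKM. The median over the 3 of these genes averaging at least 1 FPKM was 0.70 on the log2 scale. After the correction 1 was higher, and Bcl2l15 no longer was (0.58).

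Downstream of the membrane, 1 of 10 genes for the voltage-dependent anion channels, the released factors and the GTPases of mitochondrial fission and fusion passed the cut-off, upwards. This was the cytochrome c gene Cycs, with 2.57 and 5.73 FPKM. The channel genes Vdac1 (71.2 and 124 FPKM) and Vdac3 (51.3 and 89.5 FPKM) and the protease gene Htra2 (61.2 and 105 FPKM) stayed within it, and the log2 ratios of 8 of the 10 were above 0 (median 0.61). After the correction none passed, with Cycs at a log2 ratio of 0.72. Of 12 apoptosome, caspase and inhibitor of apoptosis (IAP) genes, all compared, 4 were at least 2-fold lower and 1 was higher (median log2 ratio -0.76). Apaf1, the scaffold of the apoptosome, had 13.8 and 4.20 FPKM and Casp9, the caspase it activates, 19.4 and 6.89 FPKM. Birc3 had 44.6 and 14.5 FPKM, whereas Birc5, which encodes the mitotic IAP survivin, had 118 and 276 FPKM. The other lower gene was Birc6 (4.22 and 1.24 FPKM), named after its values were seen. The long transcripts of Apaf1 and Birc6 lie where genes in general were lower, and after the correction they were within the cut-off (log2 ratios of -0.81 and -0.77). In the corrected list 3 genes were lower and 1 was higher, with a median log2 ratio of -0.44.

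MCL-1 is degraded through ubiquitin ligases and kept by deubiquitination. Of 11 genes chosen for its stability, 10 were found by symbol and 9 could be compared. Of these, 4 were at least 2-fold lower and none higher (median log2 ratio of the 9 that averaged at least 1 FPKM -0.69). The lower genes comprise both kinds. Usp9x, a deubiquitinase that stabilizes MCL-1, had 12.3 and 1.69 FPKM, and Fbxw7 (21.7 and 3.69 FPKM) and Huwe1 (4.49 and 2.23 FPKM) belong to ligases that mark it for degradation. Ier3, an early response gene, had 766 and 265 FPKM. After the correction 3 of the 9 were lower, and their median log2 ratio was -0.22. The long gene Huwe1, at a log2 ratio of -0.98 as deposited, was then at -0.04.

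Promoter windows from 250 bases before to 50 bases after a start (RefSeq, GRCm38.p6) were held for all 10 genes, 12 windows in all. None contained the STAT-type motif TTCNNNGAA, which reads the same on both strands and occurs in 8.30% of the 32851 windows of all genes. STAT5 sites outside these windows were not examined.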

How the data were processed

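RNA-seq of 1 WT and 1 STAP-1 KO library of CML LSCs was analysed. Single reads of 75 bases were mapped by the authors with TopHat 2.0.13 and Bowtie2 2.2.3 (mm10). The authors deposited the FPKM values given by Cuffnorm 2.2.1. SAMtools is 1.0 in the methods and 0.1.19 in the submitters' processing notes. The gene annotation and the scaling are not given in the sources used here. The libraries were made with SMART-Seq v4, which does not mark strand, so reads of overlapping genes on opposite strands cannot be told apart.

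The 10 members, the gene lists and the tests were chosen with earlier results of these data known. A gene was counted as past the cut-off at a ratio of 2 or more with at least 0.1 FPKM in both libraries. Log2 ratios used a pseudocount of 0.1 FPKM. With 1 library per genotype no test was run. All members are named, as are, from each pathway list, up to 4 genes averaging 1 FPKM or more that have the greatest absolute log2 ratio when 1 FPKM is added to both values. Cell type markers are given as counts and sums, except for B cells, where values of single genes are given, and a few are named with their levels.

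Symbols were matched as written to GENCODE M21 (GRCm38) for 20911 of 23284 genes. Effective depths were sought over genes with 1 annotated transcript and values under 0.3 FPKM. Estimated reads of a member use its transcript with the longest complete coding sequence, and 95% intervals are exact Clopper-Pearson intervals. Log2 ratios were corrected by subtracting medians in 20 bins of transcript length and then of GC content. The 75-base windows of each member were searched on both strands of all GENCODE transcripts. Python 3.11.15, numpy 2.4.6, pandas 2.3.3, scipy 1.17.1 and matplotlib 3.10.9 were used. The cut-off calls, the depth search and the correction for transcript length were tested on simulated data. The counting intervals and the GC part of the correction were not.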

Additional observations from a re-analysis of the deposited data

How the results depend on the processing

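The 7 survival genes had a log2 ratio below 0, as did Bax and Bak1 of the effectors, at pseudocounts of 0.01 and 1 FPKM, under the 3 other scalings of the libraries and when transcript length and GC content were corrected for. After that correction at the longest transcripts, Bcl2 and Bcl2l2 were each at -0.04, beside a median of 0 for all genes, so their direction is not resolved there. Scaling to equal summed FPKM moved the median of all genes by 0.10 on the log2 scale, the largest shift among the scalings. The 3 members lower and 1 higher past the 2-fold cut-off were also 3 and 1 under each floor and scaling, 4 and 1 after the correction and 2 and 1 with the Bcl2a1 copies summed. Over the same settings the share of all compared genes ran from 19.3% to 24.5% lower and from 10.6% to 15.1% higher under the floors and scalings, and was 19.05% lower and 11.8% higher after the correction. At a cut-off of 1.5, 5 members were lower and 1 was higher. Of the 12507 compared genes 7302 passed, 3201 of them higher, which is 32.8% lower and 25.6% higher. At a cut-off of 4, 1 member passed and 0 were lower. Of all compared genes 1371 passed, 1071 lower (8.56%) and 300 higher (2.40%). These counts follow from the cut-off itself. The log2 ratio of the survival to the effector sum, -0.64 between the libraries, was -1.04 without Mcl1, -0.62 without the Bcl2a1 copies and -0.29 with length and GC content corrected at the longest transcripts (-0.71 at the shortest). Of 70 single-gene values under the alternatives, 64 stayed within their counting intervals. The exceptions were Bcl2 and Mcl1 at equal sums (-0.82 and -0.36), Bax after the correction (-0.31), Bcl2 after it (-0.04 or -1.28, by transcript) and Bcl2l1 with the shortest transcript (-1.95). Genes of low level have wide intervals, so a value within one says little about the processing. Bcl2a1a went from -0.60 to -1.28 after the correction, past the cut-off but within its interval of -2.11 to 0.82. The correction at the shortest transcript and the corrections of the sums, the shares and the pathway lists were added after seeing the data. No paired analysis was possible because each genotype has 1 library. The estimated depth limits Bcl2l2, Bak1 and Bcl2a1a, whose counting intervals include 0.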
